A study of Mus musculus with 12 samples.

Results

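Gonadal white adipose tissue (WAT) of mice whose skeletal muscle lacked the glucocorticoid receptor (GR) was compared after 4 weeks of corticosterone (CORT), the main glucocorticoid of the mouse, and after vehicle alone. The comparison rested on 2 of the 12 RNA-seq libraries of the study, the GR-mKO CORT library and the GR-mKO vehicle library, each made from the pooled RNA of 3 mice, so each group had 1 library and no replicate. The study sequenced gastrocnemius muscle, liver and gonadal WAT of GR-mKO and GRfl/fl mice under both treatments, to ask how GR in muscle bears on the body's response to excess glucocorticoid. GR-mKO mice carried floxed *Nr3c1* alleles, the gene of GR, and Cre recombinase under the promoter of skeletal muscle actin (*Acta1*), so that the deletion was directed to muscle and the fat kept its receptor. The GRfl/fl mice carried the same floxed alleles without Cre. All animals were C57BL/6J males that were 8 weeks old at the start, and they drank 100 µg/mL CORT in 1% ethanol or 1% ethanol alone (vehicle). The hour at which the fat was taken is not given in the sources used here.

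Glucocorticoids cross the cell membrane and bind GR, which moves to the nucleus and raises or lowers the transcription of target genes. In fat they are known to act on the release and storage of lipid, on the hormones that adipocytes secrete, on immune cells and on the circadian clock. Fat can make its own active hormone, since the enzyme HSD11B1 regenerates CORT from its inactive 11-keto form.

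The files listed 22252 genes in gonadal WAT, and the 14218 genes with a value above 0 in all 4 WAT libraries (both genotypes) were compared. Levels are given as CPM, the expected count of a gene divided by the library total and multiplied by 1000000. The 4 libraries were even in depth, with totals between 19752511 and 20198110 counts. A change is the log2 of the CORT level over the vehicle level after 0.5 CPM was added to each, which understates the change of genes with low levels. With 1 library per group no test was possible, and a gene is said below to have risen or fallen where it passed 2-fold, a log2 change of 1 in either direction. Each gene is 1 entry with 1 transcript identifier, so a shift of reads between entries can enter its value, and in whole fat fewer cells of a type cannot be told apart from less RNA per cell.

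The fat bore the markers of its label. The 8 adipocyte markers, among them *Adipoq*, *Plin1* and *Fabp4*, were above 100 CPM in both GR-mKO libraries. Of 15 markers of epididymis and testis, which lie beside this depot, 12 were at 0 in both GR-mKO libraries and their sum was below 1 CPM in each. Of 12 skeletal muscle markers 2 were at 0 in both, and *Acta1*, the gene whose promoter drives Cre, stood at 199 CPM with vehicle and 103 CPM with CORT in GR-mKO fat against 37.4 and 113 CPM in GRfl/fl fat. RNA of the receptor gene was present in every library. *Nr3c1* measured 158 CPM with vehicle and 111 CPM with CORT in GR-mKO fat and 155 and 136 CPM in GRfl/fl fat. Such a value cannot tell RNA of an intact receptor from RNA that lacks the floxed part. In gastrocnemius, the tissue of the deletion, *Nr3c1* measured 46.4 and 35.5 CPM with vehicle and CORT in GR-mKO mice and 113 and 90.4 CPM in GRfl/fl mice, lower in both GR-mKO libraries than in both GRfl/fl ones.

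With CORT, 494 genes rose (3.47% of the genes compared) and 800 fell (5.63%), 9.1% in either direction. The median change over all 14218 genes was -0.12 (log2). Scaling by trimmed mean of M values (TMM) or by the median of ratios in place of the library total moved this median by 0.11 and 0.12 and turned the split to 640 higher and 610 lower or to 642 higher and 602 lower, so that higher genes made up 51.2% or 51.6% of those past 2-fold in place of 38.2%. The excess of falls over rises therefore depended on the scaling. Most list medians below are also given relative to the median of all genes for this reason.

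**Figure D1:**
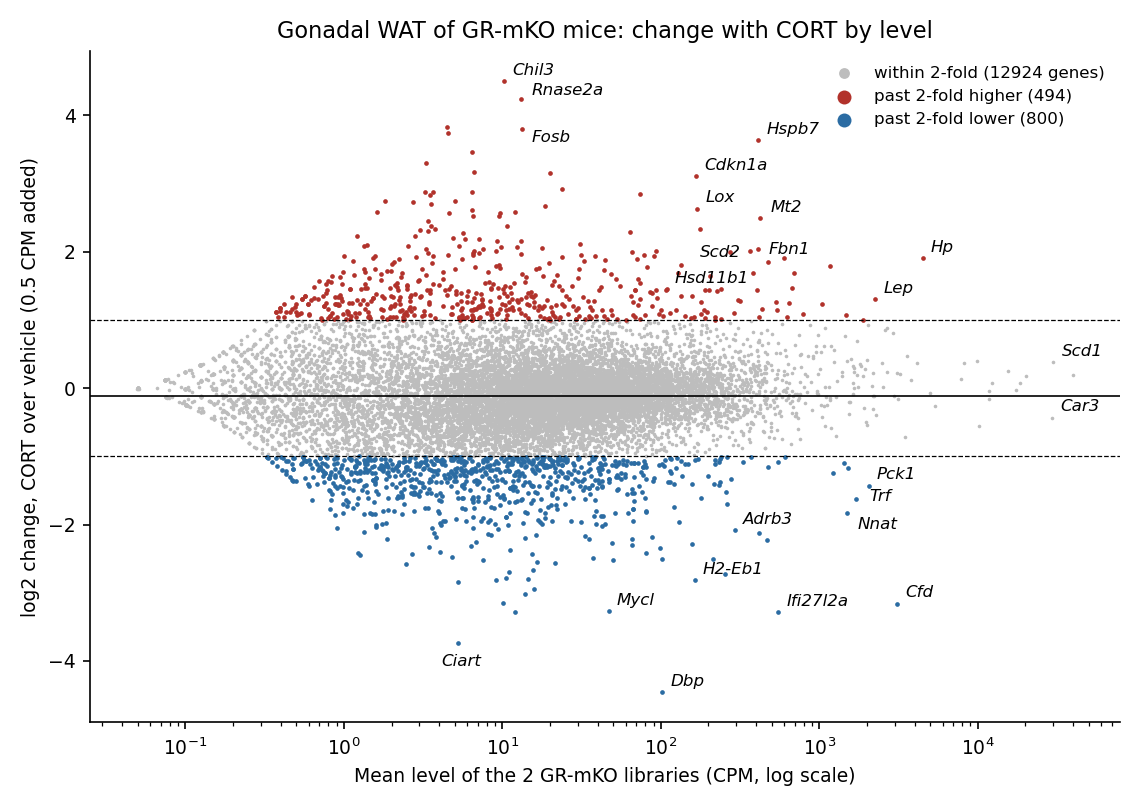
Each point is 1 of the 14218 genes, placed by the mean level of the 2 GR-mKO libraries (x axis, CPM on a log scale) and its log2 change with CORT (y axis). Dashed lines mark 2-fold and the solid line the median of all genes at -0.12; 494 genes lie above the upper line and 800 below the lower one, with *Chil3* highest and *Dbp* lowest.

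Among genes with at least 10 CPM in the higher GR-mKO library, *Chil3*, a chitinase-like protein of macrophages, had the largest rise. It measured 0.405 CPM with vehicle and 20 CPM with CORT (log2 change 4.50). *Rnase2a*, a ribonuclease of the eosinophil family, measured 0.86 and 25.3 CPM in the same order (4.25). The immediate-early factor *Fosb*, *Hspb7*, a small heat shock protein, *Hephl1*, a relative of the copper-dependent ferroxidases, *Map7d2*, *Ccl2*, a chemokine that draws monocytes, the cell cycle inhibitor *Cdkn1a*, *Lcn2*, a siderophore-binding protein, and *Mmrn1* made up the rest of the 10, with changes from 3.80 down to 2.87. All 10 were also higher with CORT in GRfl/fl fat except *Fosb*, which measured 7.02 and 6.59 CPM there.

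Clock output and immune genes were among the 10 largest falls. *Dbp*, a clock-controlled transcription factor, had the largest, followed by *Ciart*, a repressor of the clock. The interferon-inducible gene *Ifi27l2a* measured 993 CPM with vehicle and 101 CPM with CORT (-3.29). *Cfd*, the serine protease adipsin that adipocytes secrete (chr10:79890853-79892655, plus strand, 5 exons in the transcript listed), measured 5552 CPM with vehicle and 620.1 CPM with CORT (-3.16). *Rasgrp2*, *Mycl*, *Celsr2*, *Crtac1*, the apelin receptor *Aplnr* and the MHC class II chain *H2-Eb1* completed the 10, with changes between -3.28 and -2.82. All 10 were lower with CORT in GRfl/fl fat too, although *Rasgrp2* did not pass 2-fold there (-0.69).

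Ranked by the difference in CPM rather than by ratio, the 5 largest rises were in *Scd1*, the desaturase that makes monounsaturated fatty acids, in *Hp*, haptoglobin, and in *mt-Co1*, *mt-Co2* and *mt-Nd1*, which the mitochondrial genome encodes. Of these 5, *Hp* alone passed 2-fold. *Scd1* measured 25998 CPM with vehicle and 34014 CPM with CORT (0.39) in GR-mKO fat and 33087 and 27959 CPM (-0.24) in GRfl/fl fat, so the vehicle and CORT libraries of the 2 genotypes were ordered in opposite ways. The 5 largest decreases in CPM were in carbonic anhydrase *Car3*, *Cfd*, gelsolin *Gsn*, *Pck1* and transferrin *Trf*. Of these, *Car3* (-0.43) and *Gsn* (-0.56) stayed within 2-fold.

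The receptor and the handling of its ligand came first among the lists. Of 11 genes compared in this list, 1 rose and 1 fell (9.09% each way), close to what the shares of all genes (3.47% and 5.63%) give in a list of this size. The gene that rose was *Hsd11b1* (chr1:193221634-193264075, minus strand, 6 exons in the transcript listed), whose product regenerates CORT. It measured 57.5 CPM with vehicle and 158 CPM with CORT in GR-mKO fat and 61.4 and 162 CPM in GRfl/fl fat, so both CORT libraries lay above both vehicle libraries. The change was 1.45 in GR-mKO fat, a 2.73-fold rise, with a 95% exact (Clopper-Pearson) counting interval of 1.36 to 1.55. Such intervals are of the ratio without the 0.5 CPM and cover counting error only. *H6pd*, which supplies the cofactor of this enzyme, changed by -0.36 and stayed within 2-fold. *Abcb1a*, a pump that exports steroids, fell from 30.1 to 14.1 CPM (-1.07), a call that TMM scaling removed. *Nr3c1* had a change of -0.51 and the mineralocorticoid receptor gene *Nr3c2* of -0.67, both within 2-fold. In GRfl/fl fat the changes of the receptor genes were -0.19 and -0.22.

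Genes known as direct targets of GR went both ways. Of 29 compared, 7 rose (24.1%) and 6 fell (20.7%), against 3.47% and 5.63% of all genes, and the median was -0.19, 0.07 below that of all genes. *Cdkn1a* (chr17:29090976-29100727, plus strand, 3 exons in the transcript listed), which encodes the cell cycle inhibitor p21, measured 34.4 CPM with vehicle and 301 CPM with CORT. This was an 8.65-fold rise (log2 3.11, counting interval 3.02 to 3.25), and the GRfl/fl libraries measured 27.1 and 345 CPM. The metal-binding metallothioneins *Mt1* and *Mt2* rose together, *Mt1* with 204 and 739.8 CPM and *Mt2* with 127 and 719 CPM for vehicle and CORT (changes 1.86 and 2.49). *Anxa1*, an inhibitor of inflammation, rose as well (382 and 911 CPM, 1.25). *Lcn2* (2.92), *Ahsg* (2.71) and *Tat* (1.34), at 6.55 CPM or less for the last 2, were the other members that rose.

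The members that fell were also listed as targets of the receptor. The list does not part genes that the receptor raises from genes that it lowers. *Ddit4*, an inhibitor of mTORC1, measured 50.6 CPM with vehicle and 12.6 CPM with CORT (-1.96), and the clock gene *Per1* measured 97.9 and 27.1 CPM (-1.83). *Nfkbia*, the inhibitor of NF-kB, fell by 1.32 on the log2 scale, from 130.1 to 51.9 CPM. *Klf15* (-1.30), *Cebpd* (-1.11) and *Zbtb16* (-1.09) fell by less, and the calls of *Cebpd* and *Zbtb16* were lost under TMM scaling. *Zbtb16* was the one among the 6 whose GRfl/fl change was positive (0.37). The immunophilin *Fkbp5* and the leucine zipper gene *Tsc22d3* are among the best known glucocorticoid-induced genes, and neither passed 2-fold in GR-mKO fat. *Fkbp5* measured 206 CPM with vehicle and 264 CPM with CORT (0.36), against 141 and 427 CPM (1.60) in GRfl/fl fat. *Tsc22d3* measured 235 and 207 CPM (-0.19), against 169.9 and 246 CPM (0.53).

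The promoter of *Mt1* is shown because the gene was the member past 2-fold with a match to the palindrome that GR binds. The sequence is the 250 bases before the RefSeq start (GRCm38.p6, chr8:94178839-94179088, plus strand), written 5′ to 3′ on the gene's strand, with the match to GNACA and TGTNC, spaced by 3 bases, in capitals.
Mt1: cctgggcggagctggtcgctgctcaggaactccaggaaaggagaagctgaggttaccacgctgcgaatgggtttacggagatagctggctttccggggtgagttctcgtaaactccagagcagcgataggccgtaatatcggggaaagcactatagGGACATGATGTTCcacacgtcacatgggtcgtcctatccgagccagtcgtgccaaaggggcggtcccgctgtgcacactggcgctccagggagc
The match begins 94 bases before the start. Over the 32817 RefSeq mouse promoters of this length, 0.387% held this motif on either strand. Of 24 targets with a promoter in the table, 2 held it, *Mt1* and *Fam107a*, the latter within 2-fold (-0.54). Such a match is a description of the letters and not a site shown to bind.

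Circadian clock genes had the second lowest median of the 20 pathway lists. Transcription in the clock is driven by the pair of ARNTL (BMAL1) with CLOCK or NPAS2, which binds E-boxes and turns on the *Per* and *Cry* repressors, the nuclear receptors *Nr1d1* and *Nr1d2* and the output factors *Dbp*, *Tef* and *Hlf*, and these output factors bind D-boxes. Of 22 clock genes compared, 2 rose (9.09%) and 11 fell (50%), against 3.47% and 5.63% of all genes. The median change was -0.87, 0.75 below that of all genes.

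The activators were the members that rose. *Arntl* measured 0.939 CPM with vehicle and 9.11 CPM with CORT (2.74), and *Npas2* measured 0.658 and 4.95 CPM (2.23). *Clock* was also higher, at 37.5 and 60.1 CPM, and stayed within 2-fold (0.67). The GRfl/fl levels were 2.25 and 22.5 CPM for *Arntl*, 0.902 and 6.89 CPM for *Npas2* and 34.3 and 60.4 CPM for *Clock*, so for each of the 3 genes both CORT libraries lay above both vehicle libraries.

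The output factors fell the furthest. *Dbp* (chr7:45705088-45710203, plus strand, 4 exons in the transcript listed) measured 195 CPM with vehicle and 8.40 CPM with CORT in GR-mKO fat and 246 and 8.75 CPM in GRfl/fl fat. The GR-mKO change was -4.45, a 21.9-fold fall, with a counting interval of -4.76 to -4.31. *Tef* measured 208 and 53.2 CPM (-1.96) and *Hlf* 43.5 and 10.9 CPM (-1.95). The E4BP4 gene *Nfil3*, whose product competes with these factors for D-boxes, was within 2-fold in GR-mKO fat (12.5 and 15.5 CPM, 0.30), while the GRfl/fl libraries measured 4.41 and 30.1 CPM (2.64).

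Most repressors of the clock fell as well. *Per3* measured 85.0 CPM with vehicle and 14.4 CPM with CORT (-2.52), *Per2* 71.0 and 17.5 CPM (-1.99) and *Per1* had a change of -1.83. *Ciart* measured 10.2 and 0.302 CPM (-3.73), and *Nr1d2* 106 and 27.1 CPM (-1.95). The related *Bhlhe40* (-1.53) and *Bhlhe41* (-1.15) also fell. *Cry1* (-0.56), *Cry2* (-0.08) and *Nr1d1* stayed within 2-fold.

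Among the repressors, *Nr1d1*, *Cry1* and *Per2* differed most between the genotypes. *Nr1d1* measured 235 CPM with vehicle and 157 CPM with CORT in GR-mKO fat (-0.58) and 398 and 76.5 CPM in GRfl/fl fat (-2.37). *Cry1* measured 14.4 and 9.60 CPM and 8.77 and 20.2 CPM in the same order. For *Per2* the larger change was that of GR-mKO fat, with a GR-mKO change of -1.99 and GRfl/fl levels of 45.3 and 34.2 CPM (-0.40). Of the 11 clock genes that fell in GR-mKO fat, 8 also fell in GRfl/fl fat. These differences between genotypes were not tested, since each change rests on 1 library per side.

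Values of *Dbp* and *Per3* in the other tissues of the GR-mKO mice lay closer together. *Dbp* measured 149.5 and 71.3 CPM with vehicle and CORT in gastrocnemius and 74.1 and 31.6 CPM in liver. *Per3* measured 22.0 and 12.8 CPM in gastrocnemius and 14.2 and 5.81 CPM in liver. This was not so for every clock gene, since *Bhlhe41* measured 7.59 and 2.22 CPM in liver (-1.57) against a change of -1.15 in fat. The differences between tissues were not tested.

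**Figure D2:**
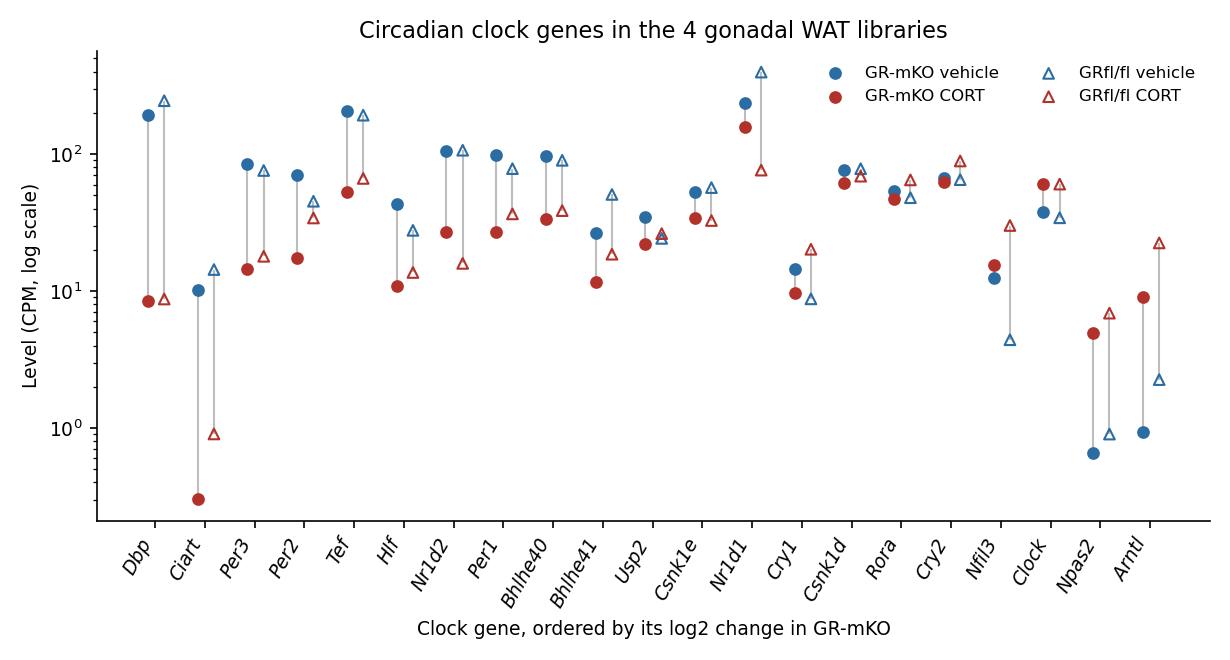
Levels of 21 of the 22 clock genes (y axis, CPM on a log scale) in the GR-mKO (filled circles) and GRfl/fl (open triangles) libraries, with vehicle in blue and CORT in red, ordered by the GR-mKO change. *Dbp* stands at the left with 195 CPM (vehicle) and 8.40 CPM (CORT), and *Arntl* at the right with 0.939 and 9.11 CPM.

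Promoters of 3 clock genes that fell are shown because they hold the letters of the elements named above. Each is the 250 bases before the RefSeq start (GRCm38.p6), 5′ to 3′ on the gene's strand: *Ciart* (chr3:95882229-95882478, minus strand) and *Per1* (chr11:69098699-69098948, plus strand) with the E-box CACGTG in capitals, and *Per3* (chr4:151044666-151044915, minus strand) with the D-box TTATGTAA in capitals.
Ciart: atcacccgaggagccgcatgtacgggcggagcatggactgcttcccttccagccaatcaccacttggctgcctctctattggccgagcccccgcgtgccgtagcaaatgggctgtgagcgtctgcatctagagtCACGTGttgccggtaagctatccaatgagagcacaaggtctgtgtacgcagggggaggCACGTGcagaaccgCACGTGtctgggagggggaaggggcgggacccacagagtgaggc
Per1: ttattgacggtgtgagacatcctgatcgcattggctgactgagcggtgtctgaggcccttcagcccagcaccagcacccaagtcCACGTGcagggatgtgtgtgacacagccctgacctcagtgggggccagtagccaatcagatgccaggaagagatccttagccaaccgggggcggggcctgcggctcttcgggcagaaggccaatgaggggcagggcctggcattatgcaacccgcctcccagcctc
Per3: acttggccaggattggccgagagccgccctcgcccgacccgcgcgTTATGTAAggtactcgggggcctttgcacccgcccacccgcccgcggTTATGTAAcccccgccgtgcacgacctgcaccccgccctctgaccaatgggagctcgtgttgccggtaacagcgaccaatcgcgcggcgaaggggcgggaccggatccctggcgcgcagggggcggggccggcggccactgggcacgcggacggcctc
*Ciart* held 3 E-boxes, *Per1* 1 E-box and *Per3* 2 D-boxes in this window. Promoters were found for 17 of the 22 clock genes, of which 5 held an E-box (*Per1*, *Cry1*, *Tef*, *Ciart* and *Bhlhe41*) and 1 a D-box. Among all 32817 promoters, 6.02% held the E-box and 0.817% the D-box. Of the 8 with a promoter among the 11 that fell, 4 held an E-box, and of the 2 that rose, 0 did.

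Of 24 hormones and identity genes of the adipocyte, 1 rose (4.17%) and 5 fell (20.8%), against 3.47% and 5.63% of all genes. The median was -0.08 with the library total and 0.04 under TMM scaling, so its sign depended on the scaling. With the library total it lay 0.04 above that of all genes. *Lep*, leptin, the hormone that reports fat mass, rose. It measured 1289.5 CPM with vehicle and 3196 CPM with CORT in GR-mKO fat (1.31) and 722 and 5587 CPM in GRfl/fl fat (2.95), and both CORT libraries lay above both vehicle libraries. Among the falls, the growth factor *Nrg4* measured 137 and 25.3 CPM (-2.42) and the imprinted gene *Nnat* 2329.6 and 657 CPM (-1.83). *Sfrp5*, a secreted Wnt antagonist, fell from 101 to 34.3 CPM (-1.54), while its GRfl/fl levels were 56.0 and 54.5 CPM (-0.04). *Adipoq*, adiponectin, measured 4341 and 2648 CPM (-0.71) and the adipogenic factor *Pparg* 152 and 162 CPM (0.09), both within 2-fold.

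Lipolysis genes held 7 falls and 0 rises among 20 compared (35% against a background of 5.63%), with a median of -0.31, 0.19 below that of all genes. Receptors and carboxylesterases were among the falls. *Adrb3* and *Adrb1*, beta-adrenergic receptors that start lipolysis on catecholamines, both fell. *Adrb3* measured 474 CPM with vehicle and 111 CPM with CORT (-2.08) and *Adrb1* 10.8 and 2.23 CPM (-2.05). In GRfl/fl fat *Adrb3* also fell (-2.52), while *Adrb1* (-0.83) stayed within 2-fold. *Hcar1* (-2.18) and *Hcar2* (-1.02), receptors for lactate and for niacin and ketone bodies that hold lipolysis back, fell too, the latter only under some scalings. The esterases *Ces1f* and *Ces1d* measured 261 and 53.1 CPM (-2.29) and 1713 and 724 CPM (-1.24). The lipases stayed within 2-fold, with changes of -0.31 for hormone-sensitive lipase *Lipe* and -0.20 for *Mgll*.

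Fatty acid synthesis genes had 3 rises and 2 falls among 19 (15.8% and 10.5%), against 3.47% and 5.63% of all genes. The list's median of 0.38 lay 0.50 above that of all genes. The desaturase *Scd2* measured 145 CPM with vehicle and 587 CPM with CORT (2.01, counting interval 1.96 to 2.07), and the GRfl/fl libraries measured 221 and 762 CPM (1.78). The elongase *Elovl6* measured 36.3 and 93.2 CPM (1.35) and *Pnpla3*, an acylhydrolase of lipid droplets, 115 and 243 CPM (1.08). *Srebf1*, the transcription factor that drives many of these enzymes, fell from 269 to 87.4 CPM (-1.62), and likewise in GRfl/fl fat (-2.06). *Aacs* fell by a margin that TMM scaling removed (-1.03). The cytosolic enzymes *Acly* (0.71), *Acss2* (0.84) and *Me1* (0.78) lay above 0 without passing 2-fold. In GRfl/fl fat the changes of *Acly* and *Acss2* were 0.07 and -0.02, from higher vehicle levels of 321 and 270.0 CPM against 222 and 128 CPM in GR-mKO fat.

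Of 23 genes of triglyceride assembly and lipid droplets, 1 rose (4.35%) and 3 fell (13%), against 3.47% and 5.63% of all genes, and 1 fall was left under TMM scaling. *Mogat2*, an acyltransferase that makes diglyceride, measured 5.67 CPM with vehicle and 16.8 CPM with CORT (1.49), and *Plin4*, a coat protein of nascent droplets, 2085 and 931 CPM (-1.16). *Lpin1*, a phosphatidate phosphatase, and *Gpihbp1*, which anchors lipoprotein lipase on capillaries, fell to a level just past 2-fold (-1.08 and -1.07) that TMM scaling brought within it. The median of -0.09 became 0.03 under TMM scaling.

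Insulin signalling and glucose use genes had 1 rise and 2 falls among 22 (4.55% and 9.09%, near the 3.47% and 5.63% of all genes). In this list 18 of the 22 lay below 0, as did 8752 of all 14218 genes, with a median of -0.36, 0.24 below that of all genes. *Pck1*, the enzyme that feeds glycerol synthesis in fat, measured 2988 CPM with vehicle and 1109 CPM with CORT in GR-mKO fat (-1.43) and 2751 and 515 CPM in GRfl/fl fat (-2.42). *Akt2*, the kinase through which insulin moves glucose transporters, measured 447 and 212 CPM (-1.08), a call lost under TMM scaling. *Igfbp3*, a binding protein of IGF1, rose from 42.9 to 101 CPM (1.23). The insulin receptor *Insr* (-0.53) and the glucose transporter *Slc2a4* (-0.08) stayed within 2-fold.

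Among 22 genes of fatty acid oxidation and beige fat, 2 rose and 2 fell (9.09% each way, against 3.47% and 5.63% of all genes), and the median was -0.28, 0.16 below that of all genes. *Dio2*, the deiodinase that activates thyroid hormone, measured 0.81 CPM with vehicle and 5.98 CPM with CORT (2.31), and the proton channel *Otop1* 0.354 and 1.29 CPM (1.06). Besides *Adrb3*, the potassium channel *Kcnk3* fell (48.3 and 22.3 CPM, -1.10), a call that TMM scaling removed. The uncoupling protein gene *Ucp1* was not above 0 in all 4 libraries and was not compared.

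**Figure D3:**
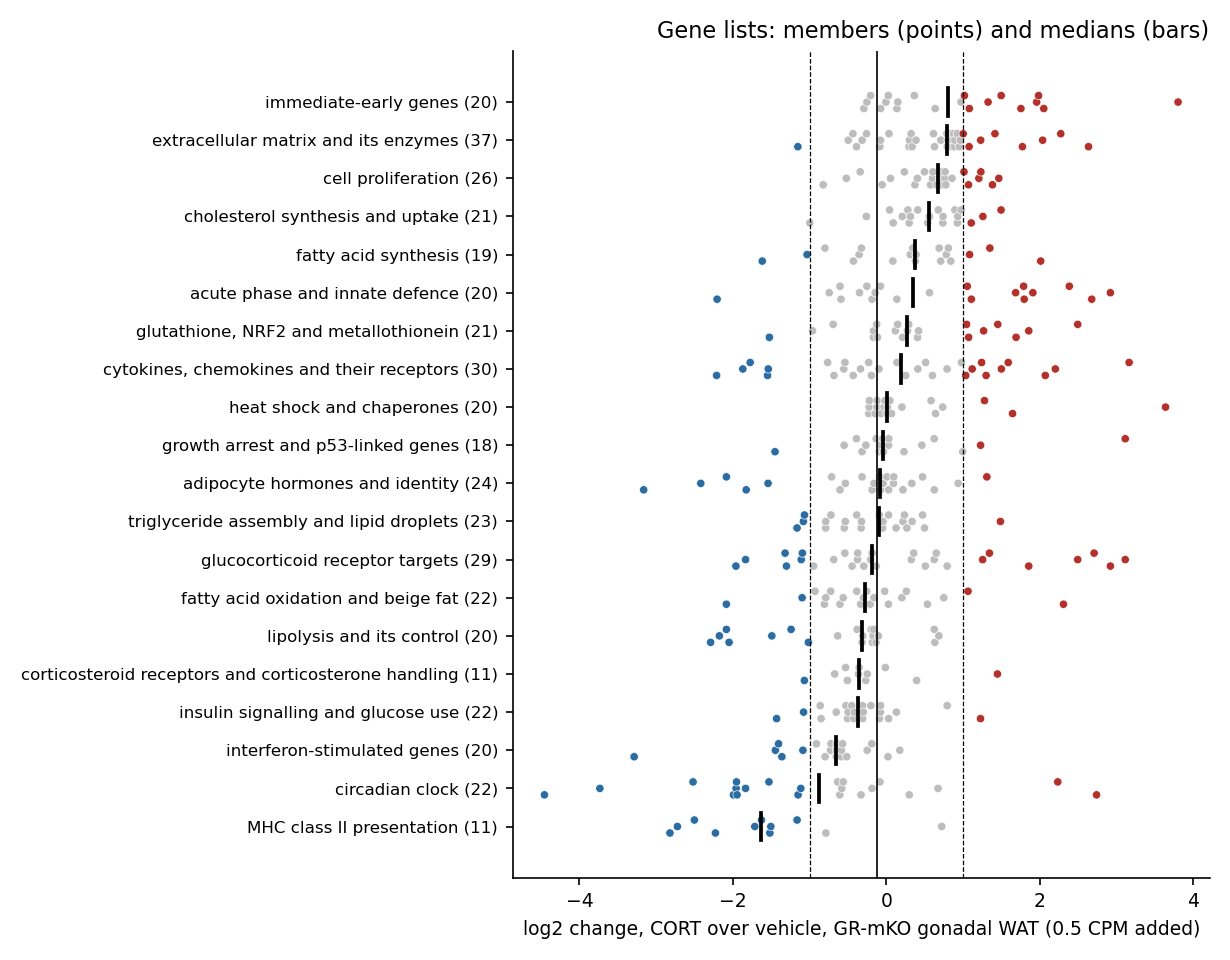
Log2 change with CORT in GR-mKO gonadal WAT (x axis) for the members of 20 gene lists (rows, number compared in parentheses). Points are genes (red past 2-fold higher, blue past 2-fold lower, grey between), short bars are list medians, the solid line is the median of all genes at -0.12 and dashed lines mark 2-fold. MHC class II and clock genes lie lowest with medians of -1.63 and -0.87, and immediate-early and extracellular matrix genes highest with 0.80 and 0.79.

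Of 20 chaperone genes, 3 rose (15%) and 0 fell, against 3.47% and 5.63% of all genes. All 3 encode small heat shock proteins, chaperones that bind unfolding proteins without ATP. *Hspb7* (chr4:141420779-141425311, plus strand, 3 exons in the transcript listed) measured 60.4 CPM with vehicle and 758 CPM with CORT in GR-mKO fat and 17.96 and 999.9 CPM in GRfl/fl fat. Its GR-mKO change was 3.64 (counting interval 3.56 to 3.73) and its GRfl/fl change 5.76, from a vehicle level that was lower in the latter. *Cryab* measured 99.4 and 312 CPM (1.64) and *Hspb1* 184 and 447 CPM (1.28).

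*Hspa8* and *Hspa5* were among 6 chaperones that passed 2-fold in GRfl/fl fat alone. *Hspa8*, the constitutive HSP70, measured 1143 CPM with vehicle and 1156 CPM with CORT in GR-mKO fat (0.02) and 570.3 and 1551 CPM in GRfl/fl fat (1.44). The GR-mKO vehicle library stood near both CORT libraries, and the GRfl/fl vehicle library below them. The endoplasmic reticulum chaperone *Hspa5* measured 366 and 422 CPM (0.20) against 278 and 596 CPM (1.10). Over the list, 9 genes rose in GRfl/fl fat (5.49% of all genes did), the 3 small heat shock genes among them, and the remaining 11 stayed within 2-fold in both genotypes. The medians were 0.01 and 0.68. This difference between genotypes was not tested.

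Antioxidant genes had 7 rises and 1 fall among 21 (33.3% and 4.76%), against 3.47% and 5.63% of all genes. The list's median lay 0.39 above that of all genes. All 7 rose in GRfl/fl fat as well. Besides the metallothioneins, *Hmox1*, heme oxygenase, measured 60.2 CPM with vehicle and 195 CPM with CORT (1.69), and *G6pdx*, which makes NADPH in the pentose phosphate pathway, 313 and 754 CPM (1.27). The glutathione transferase *Gsta3* rose (128 and 352 CPM, 1.45) while *Gstt1*, another transferase, fell (113 and 39.0 CPM, -1.52). *Srxn1*, a sulfiredoxin, and the cystine transporter *Slc7a11* were the remaining rises (1.07 and 1.04), the latter at no more than 1.39 CPM.

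Among 18 growth arrest genes, 2 rose (11.1%) and 1 fell (5.56%). This was close to what the shares of all genes (3.47% and 5.63%) give in a list of this size. *Gadd45b* measured 5.98 CPM with vehicle and 14.7 CPM with CORT (1.23) and *Gadd45g* 48.7 and 17.5 CPM (-1.45), while *Cdkn1a* was the other rise. *Trp53inp1* (0.03) and *Mdm2* (0.03), targets of p53, stayed within 2-fold. The list's median was -0.04 with the library total and 0.08 under TMM scaling.

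Of 26 proliferation genes, 6 rose (23.1%) and 0 fell, against 3.47% and 5.63% of all genes. The median was 0.67, 0.79 above that of all genes. The levels of these genes were low. The marker of cycling cells *Mki67* measured 6.68 CPM with vehicle and 14.6 CPM with CORT (1.07, counting interval 0.83 to 1.44), the cyclin *Ccnb1* 0.81 and 3.12 CPM (1.47) and *Ccne1* 2.60 and 7.57 CPM (1.38). In GRfl/fl fat 1 of the 26 rose, where 5.49% of all genes did. No gene of the list passed 2-fold in both genotypes, and *Mki67* measured 11.7 and 21.2 CPM (0.83) in GRfl/fl fat.

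Cholesterol synthesis genes lay above 0 in 19 of 21 cases, against 5466 of all 14218 genes. The list held 3 rises (14.3%) and 0 falls, against 3.47% and 5.63% of all genes. Its median lay 0.68 above that of all genes. *Cyp51*, the lanosterol demethylase, measured 28.8 CPM with vehicle and 81.9 CPM with CORT (1.49), *Nsdhl* 39.1 and 94.3 CPM (1.26) and *Hsd17b7* 8.204 and 18.2 CPM (1.11). *Hmgcs1* measured 126 and 239.6 CPM and stayed within 2-fold (0.92) except under TMM and median-of-ratios scaling. Under TMM scaling 7 of the 21 genes rose.

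Acute phase genes rose in 9 of 20 cases and fell in 1 (45% and 5%), against 3.47% and 5.63% of all genes. *Hp* measured 1885 CPM with vehicle and 7081 CPM with CORT in GR-mKO fat (1.91) and 2209 and 6458 CPM in GRfl/fl fat (1.55), so both CORT libraries lay above both vehicle libraries. The protease inhibitor *Serpina3n* measured 527.9 and 1825 CPM (1.79) and the alpha-1-acid glycoprotein *Orm1* 180.3 and 581 CPM (1.68). *Lbp*, which binds lipopolysaccharide, rose by 1.11 and *Socs3*, a brake on cytokine signals, by 1.05. *Serpina3g*, a cathepsin inhibitor of hematopoietic cells, was the fall, from 3.40 to 0.346 CPM (-2.21). Complement *C3* measured 993 and 942 CPM (-0.08). Of the 9 rises, 8 were shared with GRfl/fl fat.

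Chemokines went both ways. Of 30 cytokine and chemokine genes, 9 rose and 5 fell, against 3.47% and 5.63% of all genes. *Ccl2* and *Ccl7*, ligands of CCR2 on monocytes, measured 3.59 and 36.2 CPM (3.16) and 3.49 and 16.3 CPM (2.07), whereas *Ccr2* itself fell (24.9 and 8.26 CPM, -1.54). *Ccl6* measured 178 and 439 CPM (1.30) and osteopontin *Spp1* 1.42 and 8.32 CPM (2.20). The remaining rises lay at low levels, at 3.92 CPM or less in both GR-mKO libraries. The T cell chemokine *Cxcl9*, which interferon gamma induces, fell (58.4 and 12.2 CPM, -2.21), as did the eosinophil chemokine *Ccl11* (104 and 30.0 CPM, -1.77) and *Cxcl12*, which retains leukocytes through CXCR4 (59.4 and 15.9 CPM, -1.87).

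Interferon-stimulated genes had 0 rises and 5 falls among 20 (25%), against 3.47% and 5.63% of all genes. The list's median of -0.65 lay 0.53 below that of all genes. Beside *Ifi27l2a*, the antiviral gene *Rsad2* measured 17.2 and 5.99 CPM (-1.45), *Rtp4* 10.2 and 3.55 CPM (-1.40) and *Xaf1* 7.54 and 2.63 CPM (-1.36). *Ifit3* fell by a margin that TMM scaling removed (-1.09). In GRfl/fl fat 14 of the 20 fell, where 8.07% of all genes did, and the median was -1.26. *Irf9* differed most, with 7.86 and 7.99 CPM in GR-mKO fat (0.02) and 19.4 and 1.60 CPM in GRfl/fl fat (-3.24). The difference was not tested.

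MHC class II genes, whose products present peptides to CD4+ T cells, fell in 9 of 11 cases (81.8%) and rose in 0. Of all genes, 5.63% fell and 3.47% rose. The class II median of -1.63 lay 1.51 below that of all genes and was the lowest of the pathway lists. *H2-Eb1* measured 287 CPM with vehicle and 40.2 CPM with CORT in GR-mKO fat and 224 and 21.9 CPM in GRfl/fl fat. *H2-Aa* measured 439 and 66.1 CPM (-2.72), *H2-Ab1* 362 and 63.4 CPM (-2.50) and the invariant chain *Cd74* 767 and 163 CPM (-2.23). For each of these 4 genes both CORT libraries lay below both vehicle libraries. *Ciita*, the coactivator that drives the set, measured 7.87 and 2.42 CPM (-1.52), and the peptide editor *H2-DMa* 33.8 and 9.95 CPM (-1.71). *Ctss*, the cathepsin that trims the invariant chain, lay above 0 (80.1 and 132 CPM, 0.72). All 9 falls were shared with GRfl/fl fat, where the changes of the first 3 genes were -3.32, -3.34 and -3.19.

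The promoters of *H2-Aa* and *H2-Eb1* are shown because class II genes are known to be controlled through a Y-box near their start. Each is the 250 bases before the RefSeq start (GRCm38.p6), 5′ to 3′ on the gene's strand, at chr17:34287824-34288073, minus strand, and at chr17:34305617-34305866, plus strand, with the Y-box CTGATTGG in capitals. The RefSeq start of *H2-Eb1* lies 150 bases from that of the transcript listed.
H2-Aa: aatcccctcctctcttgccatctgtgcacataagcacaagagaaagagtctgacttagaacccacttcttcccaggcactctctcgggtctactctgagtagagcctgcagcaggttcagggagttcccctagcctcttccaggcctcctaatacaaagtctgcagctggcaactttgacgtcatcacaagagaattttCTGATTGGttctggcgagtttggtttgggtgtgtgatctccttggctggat
H2-Eb1: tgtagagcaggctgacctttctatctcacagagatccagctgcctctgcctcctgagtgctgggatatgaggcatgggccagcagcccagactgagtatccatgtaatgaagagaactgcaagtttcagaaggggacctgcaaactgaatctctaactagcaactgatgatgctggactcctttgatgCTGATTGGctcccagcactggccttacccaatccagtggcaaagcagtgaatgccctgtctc
The match begins 51 bases before the start in *H2-Aa* and 62 bases before it in *H2-Eb1*. Of the 8 class II genes with a promoter in the table, 3 held the motif, the third being *H2-Oa*, which stayed within 2-fold (-0.79). Over all 32817 promoters, 3.82% held it on either strand.

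Extracellular matrix genes had 8 rises and 1 fall among 37 (21.6% and 2.70%), against 3.47% and 5.63% of all genes. The list's median was 0.79, 0.91 above that of all genes, and 14 of its genes rose under TMM scaling. The crosslinking enzyme *Lox* measured 46.9 CPM with vehicle and 293 CPM with CORT in GR-mKO fat and 45.3 and 393 CPM in GRfl/fl fat (2.63 and 3.10). *Fbn1*, fibrillin, and *Eln*, elastin, which form elastic fibres, measured 160.2 and 658 CPM (2.04) and 46.6 and 125 CPM (1.41). The basement membrane collagens *Col4a1* and *Col4a2* measured 949 and 2003 CPM (1.08) and 618 and 1450.5 CPM (1.23).

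Fibrillar collagens stayed within 2-fold apart from *Col5a1*. *Col1a1* measured 313 and 547 CPM (0.80), *Col3a1* 757 and 1159 CPM (0.61) and *Col5a1* 147 and 295 CPM (1.00). Among matrix enzymes and their inhibitors, *Mmp12*, the elastase of macrophages, rose (36.7 and 127 CPM, 1.77), as did *Timp1* (1.61 and 9.72 CPM, 2.27), while *Timp3* fell (660.0 and 297 CPM, -1.15). The 8 rises and the fall were all shared with GRfl/fl fat, where 17 genes rose in all. *Thbs1*, a thrombospondin, measured 185 and 359 CPM in GR-mKO fat (0.95) and 34.8 and 428 CPM in GRfl/fl fat (3.60).

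Markers of several cell types moved with CORT, and their part in the changes above was not tested. Macrophage and dendritic cell markers had 5 rises and 2 falls among 19 (26.3% and 10.5%), against 3.47% and 5.63% of all genes. The summed level of the markers went from 1644 to 3092 CPM, a sum that members within 2-fold also entered. *Cd68*, a lysosomal protein of macrophages, measured 58.3 CPM with vehicle and 161 CPM with CORT (1.45), *Gpnmb* 36.7 and 149 CPM (2.01) and *Lyve1*, which tissue macrophages share with lymphatic vessels, 59.5 and 210.3 CPM (1.81). The dendritic cell markers *Cd209a* (-1.28) and *Flt3* (-1.27) fell.

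Lymphocyte markers held more falls than rises, as did all genes with the library total. Of 12 T and natural killer cell markers compared, 6 fell (50%) and 0 rose, against 5.63% and 3.47% of all genes. TMM scaling left 5 of these falls, and the sum of the 12 markers went from 24.4 to 13.7 CPM. *Cd3g* of the T cell receptor complex measured 2.379 and 0.297 CPM (-1.85). Of 15 B cell and plasma cell markers, 9 fell (60%) and 1 rose (6.67%), against the same shares of all genes. *Cd79a* of the B cell receptor measured 7.19 and 1.49 CPM (-1.95) and the joining chain *Jchain* 10.9 and 1.78 CPM (-2.32). The rise was that of the heavy chain *Ighg2b*, which measured 0.7 and 6.09 CPM in GR-mKO fat (2.46) and 17.1 and 0.201 CPM in GRfl/fl fat (-4.65), a difference that was not tested. Heavy chain constant genes are alike in sequence, so reads could be shared between them. The heavy chain *Ighm* was also higher and stayed within 2-fold (422 and 672 CPM, 0.67), and because of it the summed level of the list went from 535 to 712 CPM.

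Vessel markers also fell in part. Of 12 endothelial markers 3 fell (25%) and 1, *Lyve1*, rose (8.33%), against 5.63% and 3.47% of all genes. Their median lay 0.64 below that of all genes, and their summed level was 906 CPM with vehicle and 651 CPM with CORT. *Tie1* (-1.34), *Flt1* (-1.33) and *Esam* (-1.28) were the falls, and *Cdh5*, VE-cadherin, measured 264 and 142 CPM (-0.89). Of 10 smooth muscle and pericyte markers 2 fell (20%, against 5.63% of all genes), *Rgs5* (339.6 and 126 CPM, -1.42) and *Notch3* (-1.22). Of 8 adipocyte markers *Lep* rose and *Cfd* fell (12.5% each way). Of 12 markers of adipocyte progenitors and fibroblasts *Ly6c1* fell (8.33%, change -1.13), a call that median-of-ratios scaling removed. In lists of this size, these counts were close to what the shares of all genes (3.47% and 5.63%) give. The 4 globin genes made up 0.442% of counts with vehicle and 0.564% with CORT in GR-mKO fat, against 0.435% and 0.214% in GRfl/fl fat.

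**Figure D4:**
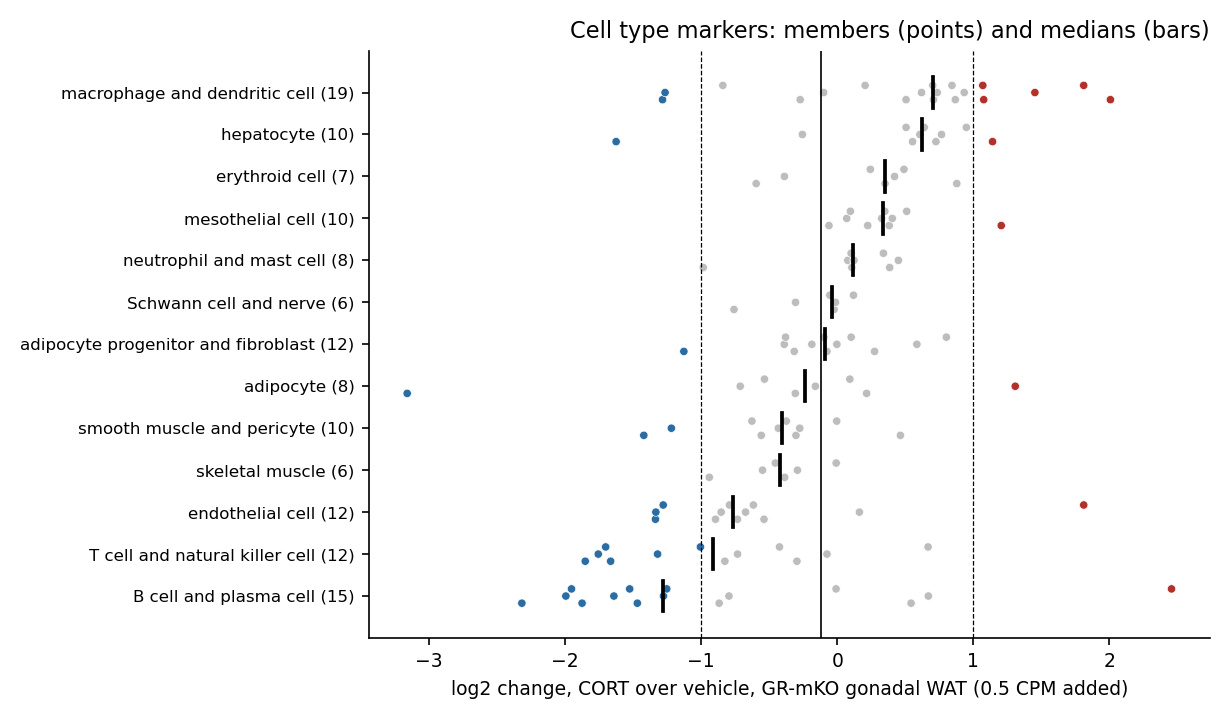
Log2 change with CORT in GR-mKO gonadal WAT (x axis) for markers of 13 cell types (rows, number compared in parentheses). Points are genes (red past 2-fold higher, blue past 2-fold lower, grey between), short bars are medians, the solid line is the median of all genes and dashed lines mark 2-fold. B cell markers have the lowest median (-1.28) and macrophage markers the highest (0.71).

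CORT in GRfl/fl fat, where muscle kept its receptor, served as the comparison for the changes above, and the pairs of libraries shared no sample. There 781 genes rose (5.49%) and 1147 fell (8.07%), 13.6% in either direction. Of the 494 genes that rose in GR-mKO fat, 288 rose in GRfl/fl fat, which was 58.3% of the first list and 36.9% of the second. Of the 800 that fell, 445 fell in both, 55.6% and 38.8% of the lists. Genes past 2-fold in both made up 2.03% and 3.13% of all genes compared. Over the 14218 genes the changes in the 2 genotypes had a Pearson correlation of 0.653 and a Spearman correlation of 0.606, across genes that are not independent replicates.

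Genes that passed 2-fold in opposite ways were few, 12 higher in GR-mKO and lower in GRfl/fl fat (0.0844%) and 10 the other way (0.0703%). *Fos* and *Egr1*, immediate-early genes that cells switch on soon after a stimulus, were among the first group. Of 20 immediate-early genes, 9 rose (45%) and 0 fell in GR-mKO fat, against 3.47% and 5.63% of all genes. Their median was 0.80, 0.92 above that of all genes. In GRfl/fl fat 4 rose and 8 fell, against 5.49% and 8.07% of all genes there, with a median of -0.32. *Fos* measured 31.6 CPM with vehicle and 124 CPM with CORT in GR-mKO fat (1.96) and 63.3 and 24.8 CPM in GRfl/fl fat (-1.33). *Egr1* measured 51.2 and 109 CPM (1.08) and 100.5 and 26.7 CPM (-1.89). For both genes the GR-mKO CORT library was the highest of the 4 and the GRfl/fl CORT library the lowest.

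Others of the list passed 2-fold in GR-mKO fat alone. *Fosb* measured 1.34 and 25.1 CPM (3.80) against 7.02 and 6.59 CPM in GRfl/fl fat, and the nuclear receptor *Nr4a1* 6.61 and 29.0 CPM (2.05) against 8.48 and 10.3 CPM (0.27). *Atf3* (1.75 and 1.26), *Egr2* (1.98 and 1.27) and *Maff* (1.496 and 2.19) rose in both. *Jun* (0.03) and *Myc* (-0.07) stayed within 2-fold in GR-mKO fat. The difference between genotypes was not tested.

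**Figure D5:**
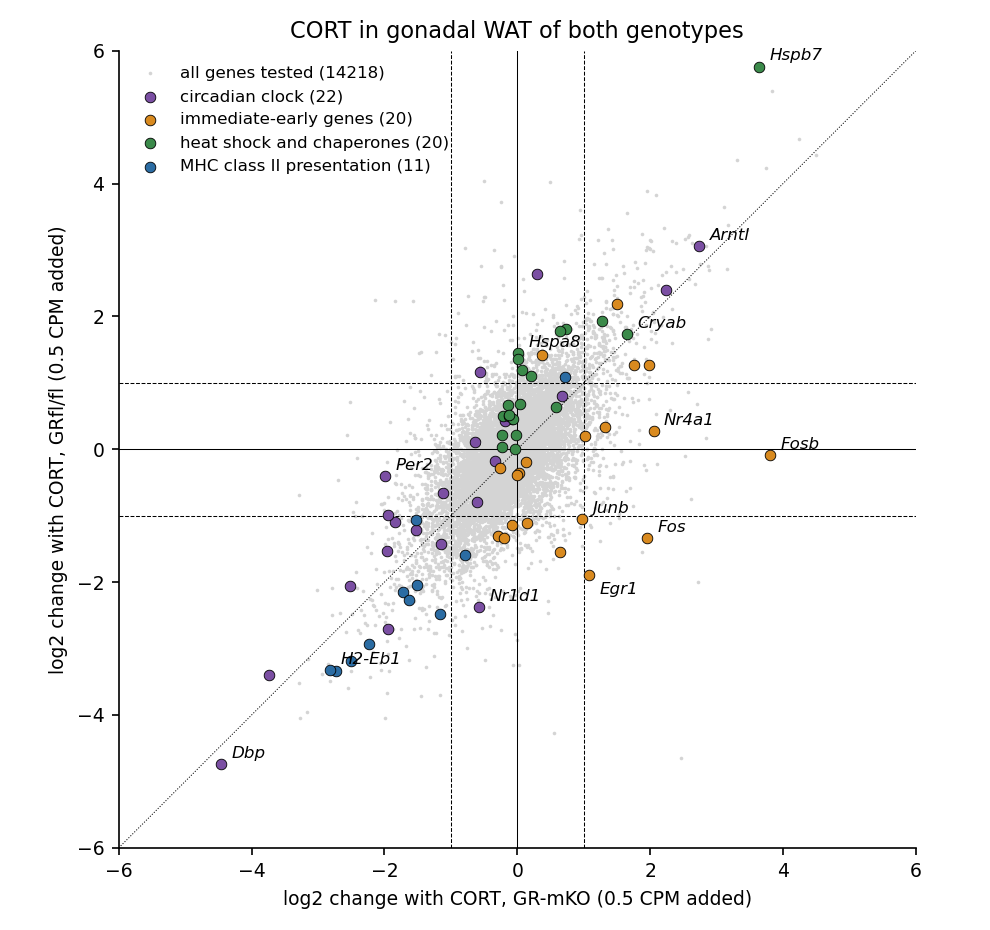
Log2 change with CORT in GR-mKO fat (x axis) against that in GRfl/fl fat (y axis) for the 14218 genes (grey) and for 4 gene lists in colour, with dashed lines at 2-fold and a dotted line of equal change. Clock and MHC class II genes lie mostly near the dotted line, several chaperones above it near an x value of 0, and *Fos* and *Egr1* in the lower right.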

How the data were processed

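The authors pooled RNA of 3 mice per group, sequenced 100-bp paired-end reads on a DNBSEQ-G400, quantified protein-coding GENCODE transcripts (mm10) with Salmon 1.2.1 and imported the result into R 3.5.0 with tximport. The deposited values are expected counts (length-scaled), with 1 entry kept per gene name, the one with the largest total. The library preparation and read strand are not given in the sources used here. Counts were divided by the library total, 0.5 CPM was added and the log2 ratio was taken with numpy 2.4.6 and pandas 2.3.3. With 1 library per group no test was run. The calculation was tested on simulated data. The genes compared and the gene lists were chosen with earlier results of these data known. Genes were named by rule: the receptor genes, the 10 largest rises and falls at 10 CPM or more, the 5 largest CPM differences each way, the 3 largest opposite changes each way, and from each list the most abundant member, the largest rise and fall and every member past 2-fold. Other list members named were chosen after their values were seen, and a few list members are counted but not reported here by name. Gene positions are from GENCODE M21 (GRCm38), which held all 22252 transcripts listed. Promoters are from RefSeq (GRCm38.p6), matched by symbol and by a start at most 300 bases away.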

Additional observations from a re-analysis of the deposited data

Results flagged for a closer look

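Genes with at least 10 CPM in the higher GR-mKO library that passed 2-fold in opposite ways in the 2 genotypes numbered 3 in one direction and 6 in the other. The 3 largest changes each way are given here, and with 1 library per side the difference was not tested. Higher with CORT in GR-mKO fat and lower in GRfl/fl fat were *Fos* (1.96 and -1.33), *Klc4*, a kinesin light chain (1.52 and -1.79), and *Egr1* (1.08 and -1.89). *Klc4* measured 4.28 CPM with vehicle and 13.2 CPM with CORT in GR-mKO fat and 17.1 and 4.58 CPM in GRfl/fl fat.

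The 3 largest of the 6 that were lower with CORT in GR-mKO fat and higher in GRfl/fl fat were *Nptxr*, the neuronal pentraxin receptor (-2.14 and 2.25), *Zfp281*, a zinc finger factor (-1.57 and 2.23), and *Rapgef2*, an exchange factor for Rap (-1.45 and 1.47). *Nptxr* measured 13.5 CPM with vehicle and 2.66 CPM with CORT in GR-mKO fat and 2.54 and 14.0 CPM in GRfl/fl fat. For *Zfp281* the 4 levels in the same order were 15.4 and 4.85 CPM and 2.41 and 13.2 CPM, and for *Rapgef2* 13.2 and 4.53 CPM and 9.52 and 27.3 CPM.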

How the results depend on the processing

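The median change of all genes was -0.00597 under TMM and -0.000875 under median-of-ratios scaling in place of -0.12. A pseudocount of 0.1 CPM gave 1213 falls in place of 800, and 2 CPM gave 273 rises and 416 falls. A threshold of 1.5-fold gave 1237 rises and 2333 falls, and 4-fold gave 62 and 63. Counting intervals wholly past 2-fold left 303 rises and 441 falls, and asking for the same call in GRfl/fl fat left 288 and 445. The other settings (both scalings, 2 filters on low values, the total without the 10 most abundant entries and, for rises, 0.1 CPM) kept the counts within 1.5 times, from 392 to 733 rises and from 602 to 1044 falls. Of 225 named genes, 175 passed 2-fold, and 13 of these lost that call under at least 1 scaling while 4 others gained it. No named gene that passed 2-fold changed direction under any alternative. No paired analysis was possible because each group had 1 library. Counting intervals do not cover the spread between mice, which pooling hides.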

Other observations

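The 13 protein genes of the mitochondrial genome, which were chosen after their values were seen, made up 15.1% of counts with vehicle and 16.99% with CORT in GR-mKO fat, against 17.5% and 15.4% in GRfl/fl fat. Their changes ranged from -0.12 to 0.39 in GR-mKO fat, with 11 of 13 above 0, and from -0.64 to 0.21 in GRfl/fl fat, with 2 above 0. None passed 2-fold in either genotype, and the difference was not tested.

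Of 8 genes of growth hormone signalling, also chosen after their values were seen, *Cish*, a feedback inhibitor that STAT5 induces, fell. It measured 25.9 CPM with vehicle and 3.32 CPM with CORT in GR-mKO fat (-2.79) and 7.68 and 1.43 CPM in GRfl/fl fat (-2.08). *Igf1* measured 210.5 and 116 CPM (-0.86) and the receptor *Ghr* 1071 and 1396 CPM (0.38), both within 2-fold.

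Outside the comparison, 66 genes with at least 10 CPM in a GR-mKO library were not above 0 in all 4 WAT libraries, and those named here were chosen after their values were seen. *Cyp2b10*, a cytochrome P450, was listed at 0 with vehicle and at 20.7 CPM with CORT in GR-mKO fat, and at 0.902 and 22.4 CPM in GRfl/fl fat. *Prpf6*, a splicing factor that all cells use, was listed at 64.7 CPM with vehicle and at 0 with CORT in GR-mKO fat, while the GRfl/fl libraries listed 55.1 and 21.1 CPM. *Kmt2d*, a histone methyltransferase, was listed at 47.9 CPM with vehicle and 0 with CORT in GR-mKO fat, and at 0 and 56.1 CPM in GRfl/fl fat.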
